A study of Mus musculus with 16 samples.

Results

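The small leucine-rich proteoglycans (SLRPs) described here are 7 genes of the mouse heart: podocan (Podn, Entrez 242608), decorin (Dcn, 13179), biglycan (Bgn, 12111), lumican (Lum), fibromodulin (Fmod), Prelp and osteoglycin (Ogn). They were selected by symbol from the 18346 genes of the count table, and all 7 were among the 13373 genes that passed the filter on low counts. Podn was chosen from its difference between aged KO and aged WT hearts in an earlier analysis of these data, and the others as its relatives. Differences between aged KO and aged WT hearts are therefore given as values with no test, for all 7 genes, and Podn is tested only between the young groups.

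RNA was sequenced in bulk from whole dissected hearts of 16 mice in 4 groups of 4. The groups were mice with a systemic knockout of Armh4 (KO) at 25 months of age (aged), WT mice at 25 months (aged), KO mice at 8 weeks (young) and WT mice at 8 weeks (young). The strain, C57BL/6J, is stated for the normal mice only, all mice were on a normal diet, and each group was chosen from at least 6 animals and described as independent biological replicates. The design sets the effect of Armh4 against ageing. How the knockout allele was made and the background of the KO animals are not given in the sources used here, nor is a sequencing batch.

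SLRPs are secreted proteins built of leucine-rich repeats, most of which carry chondroitin, dermatan or keratan sulfate chains. They bind collagen fibrils, whose diameter and spacing they regulate, and several also bind growth factors such as TGF-beta or innate immune receptors. In the heart they are made mainly by fibroblasts and by cells of the valves and vessel walls. Decorin and biglycan form one class with dermatan or chondroitin sulfate chains, lumican, fibromodulin and Prelp a class in which several members carry keratan sulfate, osteoglycin belongs to a class of its own with epiphycan and opticin, and podocan to a class with Podnl1.

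In the RefSeq gene table for GRCm38.p6, Dcn and Lum lie next to each other on chromosome 10, followed by Kera and Epyc. Prelp and Fmod lie next to each other on chromosome 1, beside Optc, and Ogn lies on chromosome 13 after the SLRP family genes Ecm2, Aspn and Omd. Podn on chromosome 4 and Bgn on chromosome X had no SLRP gene among the 3 protein-coding genes on either side. Start regions, from 250 bases before to 50 bases after an annotated start, were found in the RefSeq promoter table (GRCm38.p6) for 5 of the 7 genes, as 6 windows. Those of Podn, Bgn and Ogn are shown because the results below turn on Podn and because Bgn and Ogn are the genes that passed a test. They are read 5′ to 3′ on the strand of the gene, and capitals mark matches, on either strand, to the GC box (GGGCGG) and the TATA box (TATAAA).

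Podn, chr4:108031905-108032204, minus strand: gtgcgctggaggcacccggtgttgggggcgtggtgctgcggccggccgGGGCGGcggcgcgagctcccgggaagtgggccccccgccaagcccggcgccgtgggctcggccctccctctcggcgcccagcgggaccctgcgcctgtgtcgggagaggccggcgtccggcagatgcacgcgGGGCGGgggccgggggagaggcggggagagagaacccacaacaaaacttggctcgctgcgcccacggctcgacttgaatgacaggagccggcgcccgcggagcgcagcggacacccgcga

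Bgn, chrX:73483351-73483650, plus strand: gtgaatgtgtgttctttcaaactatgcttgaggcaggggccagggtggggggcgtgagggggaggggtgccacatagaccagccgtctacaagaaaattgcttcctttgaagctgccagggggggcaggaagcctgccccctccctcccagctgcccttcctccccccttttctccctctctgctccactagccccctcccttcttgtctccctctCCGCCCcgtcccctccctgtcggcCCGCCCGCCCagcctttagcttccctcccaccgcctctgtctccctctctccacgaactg

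Ogn, chr13:49607765-49608064, plus strand: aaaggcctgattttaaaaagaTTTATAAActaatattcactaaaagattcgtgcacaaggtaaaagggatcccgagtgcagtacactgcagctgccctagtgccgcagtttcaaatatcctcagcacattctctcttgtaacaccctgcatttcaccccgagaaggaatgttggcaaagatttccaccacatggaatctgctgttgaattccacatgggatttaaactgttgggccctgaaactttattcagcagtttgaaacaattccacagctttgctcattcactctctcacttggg

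The Podn window had a GC content of 77% with GC boxes starting 202 and 70 bases before the start. The Bgn window had a GC content of 63.7% with 3 GC box matches, the last 2 of which overlap. The Ogn window had a GC content of 42.3%, no GC box and 2 TATA box matches, which overlap on opposite strands. A second annotated Podn start held neither motif. Among all 32851 windows of the table, 35.7% held a GC box and 13.6% a TATA box. Neither the AP-1 motif (TGANTCA, in 7.81% of windows) nor an interferon response core (GAAANNGAA, in 8.56%) was found in any of the 6 windows. A SMAD element (CAGAC, in 49.6%) was found in the window of the second Podn start and in those of Fmod and Prelp. These matches are descriptions of letters, and which start was used in these hearts was not measured.

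Hearts are named below by group and animal number. Total counts were 11456503 to 13298660 per heart, and levels below are CPM (counts scaled to library size) with TMM scaling unless FPKM, a value per length, is named. Armh4 had 1 to 22 counts in the 8 KO hearts and 158 to 254 counts in the 8 WT hearts. On the first principal component of log2 CPM (40.7% of variance) aged and young hearts lay on opposite sides, and WT_Aged-1 was the farthest from the centre. It also held the highest Dcn and Lum and the lowest Prelp level of the 16 hearts, and values without it are given beside the differences it moves most. The deposited expected counts of the 7 genes were whole numbers in all 16 hearts. The summed level of 8 atrial cardiomyocyte markers was 216 to 693 CPM in aged KO and 190 to 532 in aged WT hearts. In young hearts it was 292 to 742 in KO and 296 to 504 in WT. Myl7 ranged from 0 to 802 counts and Sln from 0 to 237. Myl7 was at 0 in 2 hearts, Sln in 5, Dhrs9 in 6 and Bmp10 in 12, and the other markers were above 0 in all. Within the sum, Kcnj3 had 1121 to 2022 counts and Nppa 738 to 5528. The median log2 difference of KO against WT over the 6 tested was 2.06 in aged and 1.14 in young hearts, and edgeR called 0. The part of atrial tissue in the SLRP values was not tested.

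Per length, decorin was the most abundant of the 7 genes in every heart, with a mean of 475 FPKM over the 16 hearts and a range of 315 to 775 FPKM. Biglycan came next at 87.1 to 176 FPKM and lay above osteoglycin in all 16 hearts. Osteoglycin (66.4 FPKM) and lumican (57.4 FPKM) were neighbours whose order was not fixed, since osteoglycin was the higher in 12 of 16 hearts. Prelp followed at 18.9 FPKM, podocan at 6.79 FPKM and fibromodulin at 0.721 FPKM, and each was below its predecessor in all 16 hearts. Decorin made up 62.9 ± 2.19% of the summed FPKM of the 7 genes in aged KO hearts, 66.7 ± 1.48% in aged WT hearts, 62.9 ± 2.70% in young KO hearts and 59.7 ± 1.32% in young WT hearts (SD, n = 4 each). The summed FPKM was 863 ± 105 in aged KO hearts, 825 ± 221 in aged WT hearts, 649 ± 106 in young KO hearts and 665 ± 76.5 in young WT hearts (SD, n = 4 each), and the ranges of aged and young hearts overlapped in both genotypes.

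**Figure D1:**
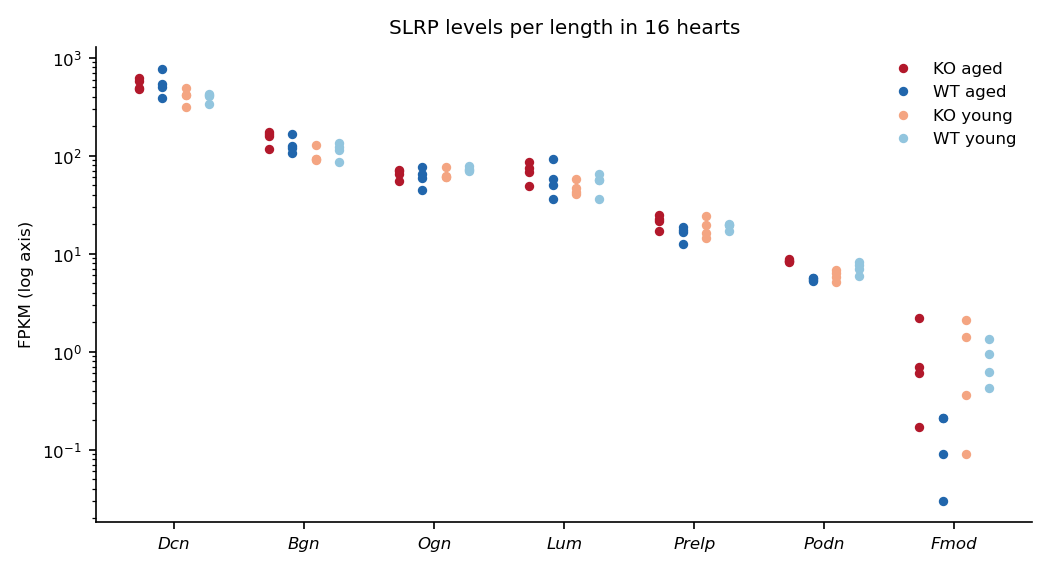
FPKM of the 7 SLRP genes in the 16 hearts on a log axis, ordered by mean level, with 1 point per heart and the 4 groups side by side in each gene (KO aged, WT aged, KO young, WT young from left to right). Decorin lies between 315 and 775 FPKM, and fibromodulin at or below 2.21 FPKM.

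Podocan, a protein described in kidney glomeruli and in the vessel wall, was higher in aged than in young KO hearts and lower in aged than in young WT hearts. Podn had 23.9, 24.0, 23.6 and 26.0 CPM in the aged KO hearts, against 15.1, 14.7, 16.4 and 16.6 CPM in the aged WT hearts. It had 16.7, 14.7, 20.8 and 18.6 CPM in the young KO hearts, against 20.8, 20.5, 19.0 and 25.0 CPM in the young WT hearts. All 4 aged KO hearts thus lay above all aged WT and all young KO hearts, and all 4 aged WT hearts lay below all young WT hearts, while the young KO and young WT hearts overlapped. The raw counts behind these values were 290 to 322 in aged KO, 185 to 214 in aged WT, 179 to 252 in young KO and 221 to 298 in young WT hearts.

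The log2 difference between aged KO and aged WT hearts was 0.64 ± 0.105 (SE), a fold of 1.55. This is the difference Podn was chosen for, so it carries no test, and among all genes tested 0.165% were called higher in this comparison and 2.1% had all KO hearts above all WT hearts. The aged KO against young KO difference was 0.46 ± 0.104, and the aged WT against young WT difference was -0.44 ± 0.106. These share the aged hearts with the difference above and are likewise untested. The share of all genes tested with the aged hearts entirely above the young ones was 8.71% in KO, and the share with the aged hearts entirely below was 9.68% in WT. The ageing difference in KO minus that in WT was 0.90 ± 0.148, and it lay between 0.78 and 0.97 under all the alternative settings tried. Between young KO and young WT hearts the log2 difference was -0.27 ± 0.105 with a 95% interval of -0.49 to -0.05. It did not pass the test (edgeR quasi-likelihood, adjusted p = 0.343, unadjusted p = 0.0188).

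**Figure D2:**
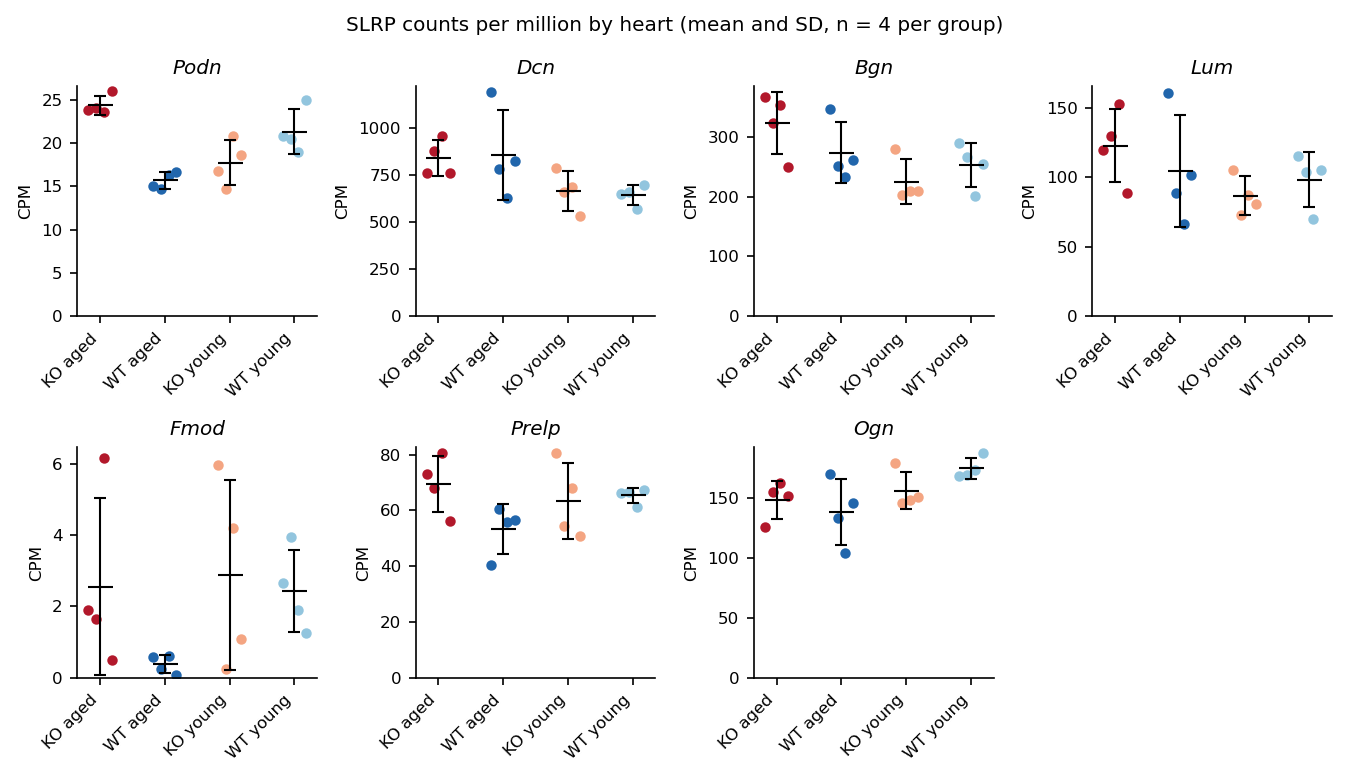
CPM of each SLRP gene in each heart (points), with the mean and SD of each group of 4 hearts (bars), in the order KO aged, WT aged, KO young, WT young. Podn is at 23.6 CPM or above in every aged KO heart and at 16.6 CPM or below in every aged WT heart. For each of the other genes the aged KO and aged WT hearts overlap.

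Relative to decorin, Podn had its lowest group mean in aged WT hearts. Within each heart, Podn FPKM was 1.58 ± 0.204% of Dcn FPKM in aged KO hearts, 1.04 ± 0.262% in aged WT hearts, 1.51 ± 0.385% in young KO hearts and 1.81 ± 0.0846% in young WT hearts (SD, n = 4 each). The lowest of the aged KO hearts (1.38%) was above the highest of the aged WT hearts (1.37%) by a narrow margin. KO_Young-27 (1.16%) and KO_Young-31 (1.25%) lay inside the range of the aged WT hearts. The lowest value, 0.729%, was that of WT_Aged-1, the heart with the highest Dcn level. This ratio also carries the higher Dcn values of aged hearts. Relative to the mean log2 CPM of 12 fibroblast markers in the same heart, Podn was higher by 0.46 (log2) in aged KO than in aged WT hearts with no overlap. On the same scale the aged and young hearts overlapped in both genotypes, with differences of 0.38 in KO and -0.29 in WT. The share of all genes without overlap was not computed on this scale or relative to decorin. The summed level of the fibroblast markers was 1970 to 2490 CPM in aged KO hearts, 1660 to 2280 in aged WT hearts, 2030 to 2350 in young KO hearts and 1900 to 2290 in young WT hearts, and none of the 12 markers was at 0 in any heart. In bulk tissue, fewer cells of a type and less RNA per cell cannot be told apart.

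Decorin, which binds type I collagen and TGF-beta, had 764, 878, 958 and 760 CPM in the aged KO hearts, against 788, 659, 685 and 534 CPM in the young KO hearts. In WT it had 1192, 781, 630 and 825 CPM in the aged hearts, against 652, 659, 573 and 700 CPM in the young hearts. Aged hearts were mostly higher in both genotypes, and in both the groups overlapped. The log2 difference with age was 0.33 ± 0.153 in KO (adjusted p = 0.208) and 0.41 ± 0.153 in WT (adjusted p = 0.0638), and neither passed edgeR's test. The WT value was 0.22 without WT_Aged-1 (adjusted p = 0.207), which had the highest Dcn level of all 16 hearts, and passed without WT_Aged-5 (0.53, adjusted p = 0.0121) and with DESeq2 (adjusted p = 0.0393). Between KO and WT the log2 difference was -0.03 ± 0.152 in aged hearts (no test; 0.16 without WT_Aged-1) and 0.04 ± 0.153 in young hearts (adjusted p = 0.938). Relative to the fibroblast markers of the same heart, Dcn was higher in all aged than in all young hearts in both genotypes. On that scale the log2 differences with age were 0.25 in KO and 0.52 in WT, without a test. The share of all genes without overlap on that scale was not computed.

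Biglycan, the second dermatan sulfate member and a ligand of Tlr2 and Tlr4, rose with age in KO hearts. It had 368, 323, 353 and 250 CPM in the aged KO hearts, against 281, 202, 209 and 209 CPM in the young KO hearts, with 1 aged heart inside the range of the young ones. The log2 difference was 0.52 ± 0.146 (edgeR adjusted p = 0.0333, fold 1.44). It was the only gene of the 6 tested that was called in this comparison, where 5.03% of all genes tested were called higher and 2.6% lower. The call was lost when any of 6 hearts was left out (KO_Aged-114, KO_Aged-115 or KO_Aged-122, or young KO 31, 38 or 53), with adjusted p of 0.0728 to 0.102 and log2 differences of 0.46 to 0.52. In WT, Bgn had 348, 252, 234 and 261 CPM in the aged hearts and 289, 266, 202 and 254 CPM in the young hearts, a log2 difference of 0.11 ± 0.146 (adjusted p = 0.615). That value was -0.01 without WT_Aged-1 (adjusted p = 0.980) and 0.02 without WT_Young-39 (adjusted p = 0.951). Between aged KO and aged WT hearts the log2 difference of Bgn was 0.24 ± 0.146 (no test), and 0.37 without WT_Aged-1. Markers of activated fibroblasts, which include Cilp and Ltbp2, summed to 169 to 349 CPM in aged KO, 164 to 605 in aged WT, 139 to 218 in young KO and 151 to 314 in young WT hearts. Of the 8 markers Cthrc1 was at 0 in 2 hearts and the others were above 0 in all, and their part in the Bgn value was not tested. The difference between the ageing changes of Bgn in KO and WT was 0.41 ± 0.206 on the log2 scale and was not tested, since it contains the comparison on which Podn was chosen.

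Lumican, a keratan sulfate type regulator of collagen fibril growth, had 120, 130, 153 and 89.1 CPM in the aged KO hearts and 106, 72.9, 87.2 and 81.1 CPM in the young KO hearts. The log2 difference of 0.50 ± 0.243 did not pass the test (adjusted p = 0.249). Aged WT hearts spread from 66.5 to 161 CPM, wider than the 69.8 to 115.1 CPM of young WT hearts, with a log2 difference of 0.08 ± 0.243 (adjusted p = 0.839). The highest aged WT value belonged to WT_Aged-1, and without it the WT difference was -0.19 (adjusted p = 0.580). For Lum the aged KO against aged WT difference was 0.24 ± 0.242 (no test), without that heart 0.52 and without KO_Aged-122 0.12.

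Prelp, which binds collagen and the basement membrane proteoglycan perlecan, had 72.9, 68.1, 80.4 and 56.3 CPM in the aged KO hearts, against 40.3, 60.6, 55.8 and 56.5 CPM in the aged WT hearts. Only the lowest aged KO heart fell inside the range of the aged WT hearts, and the log2 difference was 0.38 ± 0.140 (no test), or 0.26 without WT_Aged-1, the lowest of all. All 4 aged WT hearts lay below all young WT hearts, which had 66.2, 66.5, 61.3 and 67.5 CPM. The log2 difference with age in WT was -0.29 ± 0.140 and did not pass the test (adjusted p = 0.144), and it was -0.17 without WT_Aged-1 (adjusted p = 0.413). In KO it was 0.13 ± 0.139 (adjusted p = 0.642), with a range of 0.04 to 0.27 when 1 heart was left out. Young KO hearts ranged from 51.0 to 80.5 CPM, on both sides of the narrow young WT group.

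Osteoglycin, a secreted SLRP whose transcript level has been linked to left ventricular mass in rats and humans, fell with age in WT hearts. It had 171, 133, 104 and 146 CPM in the aged WT hearts, against 169, 170, 173 and 188 CPM in the young WT hearts. WT_Aged-1 was inside the range of the young hearts and the other aged hearts were below every young heart. The log2 difference was -0.34 ± 0.118 (edgeR adjusted p = 0.0455). The call was not made with the WT groups fitted alone (adjusted p = 0.110), with a minimum of 1 CPM in 4 libraries (0.0528) or with limma on log2(FPKM + 1) (0.136) or log2(FPKM + 0.1) (0.133). Ogn was the only gene of the 6 tested that was called with age in WT, where 11.8% of all genes tested were called higher and 9.93% lower. The Ogn call was also lost when any WT heart other than WT_Aged-1 was left out (WT_Aged-4, WT_Aged-5 or WT_Aged-12, young WT 29, 34, 39 or 42; adjusted p of 0.0537 to 0.130), and without WT_Aged-1 it was made at -0.44 (adjusted p = 0.0065). The difference was -0.22 without WT_Aged-5, which had the lowest Ogn level of the group. In KO, Ogn had 126, 155, 163 and 152 CPM in the aged hearts and 180, 146, 148 and 151 CPM in the young hearts, a log2 difference of -0.07 ± 0.118 (adjusted p = 0.777). Relative to decorin in the same heart, Ogn FPKM was 12.2 ± 1.02% in aged KO hearts against 16.3 ± 2.12% in young KO hearts, and 11.2 ± 1.0% in aged WT hearts against 18.6 ± 1.47% in young WT hearts (SD, n = 4 each). On that scale, which also carries the higher Dcn values of aged hearts, the aged hearts lay entirely below the young ones in both genotypes. The share of all genes that did so relative to decorin was not computed. Relative to the fibroblast markers the aged and young hearts overlapped in both, with log2 differences of -0.16 in KO and -0.21 in WT.

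**Figure D3:**
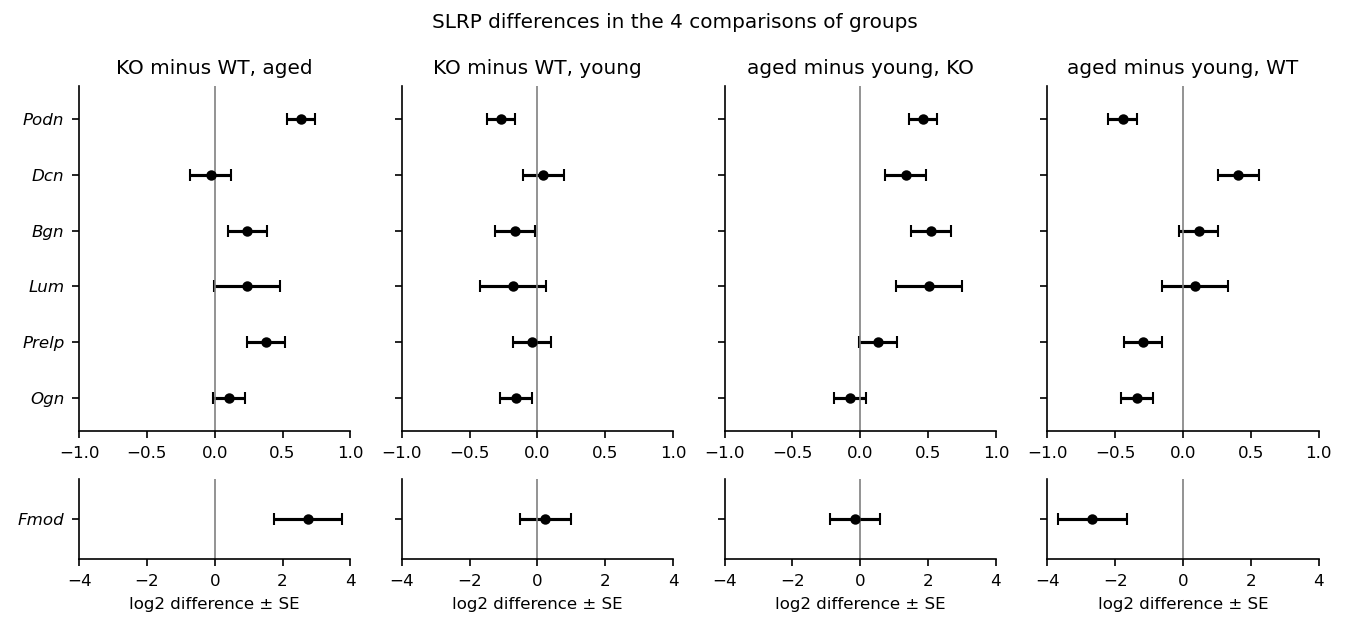
Log2 differences (points) and their standard errors (bars) of the 7 SLRP genes in the 4 comparisons, from the fit over all 16 hearts; the lower row shows Fmod on a wider axis. Podn is positive in KO against WT at 25 months (0.64) and in KO with age (0.46), and negative in WT with age (-0.44).

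Fibromodulin, a collagen-binding SLRP best known from tendon and cartilage, had few counts and varied most between hearts. It had 25, 20, 81 and 6 counts in the aged KO hearts, against 7, 3, 8 and 1 counts in the aged WT hearts. In young hearts it had 71, 3, 51 and 13 counts in KO, against 33, 49, 22 and 15 counts in WT. The aged WT hearts were the low group, entirely below the young WT hearts, whereas both KO groups spread widely, and KO_Aged-125 fell inside the range of the aged WT hearts. The log2 difference with age in WT was -2.67 ± 1.02 and did not pass edgeR's test (adjusted p = 0.0776). It passed with DESeq2 (-2.70, adjusted p = 0.021) and when the WT groups were fitted alone (adjusted p = 0.00296). The difference between aged KO and aged WT hearts was 2.75 ± 1.01 (no test) and was 1.82 without KO_Aged-122, and with age in KO it was -0.16 ± 0.745 (adjusted p = 0.936). The KO ageing value was -1.07 without KO_Aged-122 and 0.48 without KO_Young-27, so single hearts set its sign. In the 3 hearts with the highest Fmod (KO_Aged-122 at 6.17 CPM, KO_Young-27 at 5.97 CPM and KO_Young-38 at 4.21 CPM), the cartilage-type SLRPs epiphycan (Epyc, 1.37, 0.925 and 1.24 CPM) and chondroadherin (Chad, 1.22, 2.77 and 1.49 CPM) were also at their highest. The summed level of 6 valve markers was 66.5, 34.9 and 48.9 CPM in those hearts. It was 26.4 to 66.5 CPM in the aged KO group, 22.5 to 27.4 in aged WT, 18.9 to 48.9 in young KO and 20.5 to 23.9 in young WT, with the marker Cldn11 at 0 in 1 heart and the other 5 markers above 0 in all. The valve sum did not follow Fmod in every heart. WT_Young-34, next in Fmod at 3.94 CPM, had a valve sum of 23.9 CPM. KO_Aged-114 and KO_Aged-115 had valve sums of 36.9 and 40.3 CPM with Fmod at 1.91 and 1.66 CPM. The summed level of 8 cartilage markers did not follow Fmod across hearts. It was 8.76 CPM in KO_Aged-122, 3.61 in KO_Young-27 and 2.89 in KO_Young-38, with ranges of 4.59 to 8.76 CPM in aged KO, 6.19 to 8.60 in aged WT, 2.14 to 3.61 in young KO and 2.01 to 3.62 in young WT hearts. The cartilage collagen Col2a1 was at 0 in 4 hearts, and Col9a3 and Cnmd were the markers above 0 in all. The part of valve tissue in the Fmod values was not tested.

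**Figure D4:**
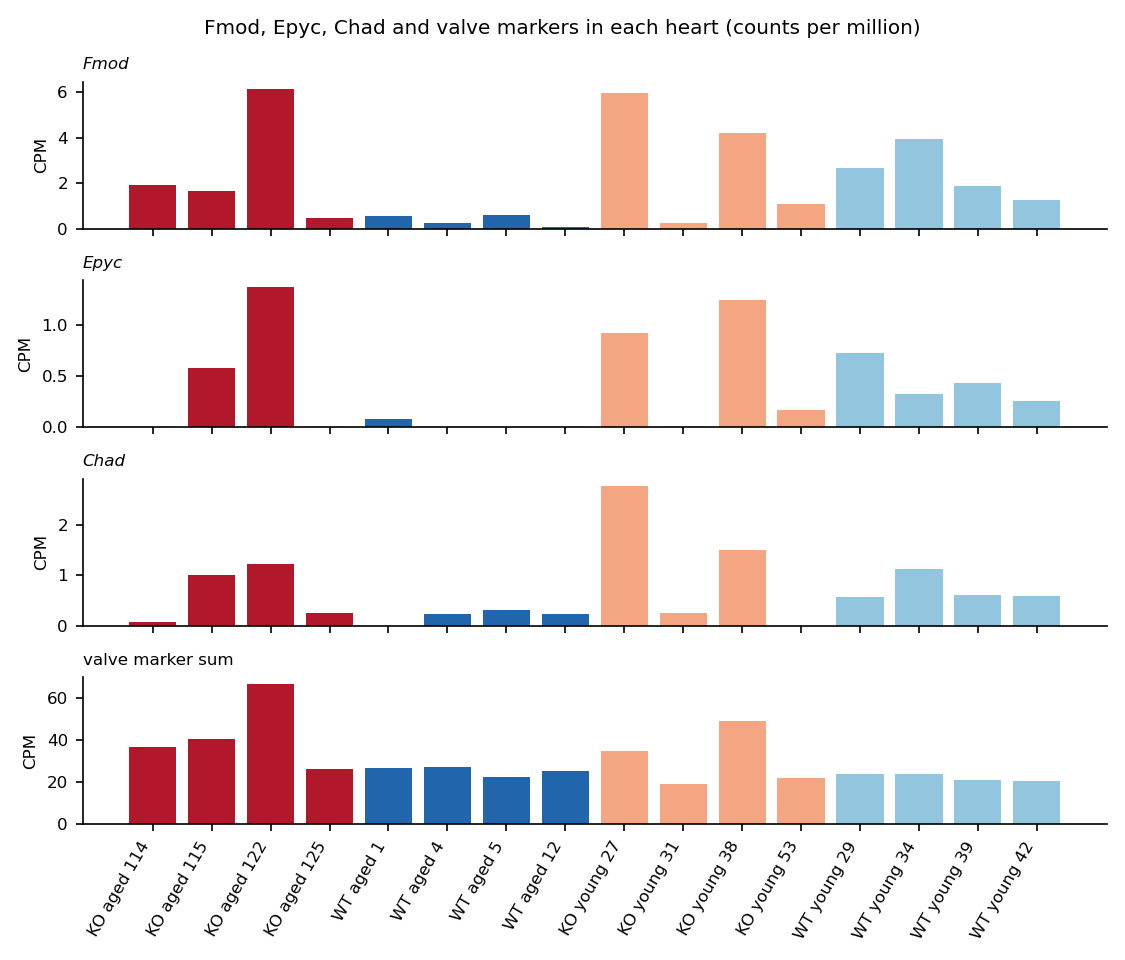
Bars give CPM of Fmod, Epyc, Chad and the sum of 6 valve markers in each of the 16 hearts, coloured by group. KO_Aged-122, KO_Young-27 and KO_Young-38 hold the highest values of Fmod, Epyc and Chad, and the aged WT hearts have the lowest Fmod values as a group. In the valve row, KO_Aged-115 (40.3 CPM) and KO_Aged-114 (36.9 CPM) are above KO_Young-27 (34.9 CPM).

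Between young KO and young WT hearts, 0 of the 7 genes were called by edgeR, DESeq2 or limma, and 1 (Podn) had an unadjusted p below 0.05 in edgeR. DESeq2 gave no adjusted p for Fmod in this comparison, so it could not call that gene. Among all genes tested, 0.0523% were called higher and 0.217% lower in this comparison. Log2 differences ranged from -0.27 (Podn) to 0.23 ± 0.754 (Fmod, -0.25 on log2(FPKM + 0.1)), and the KO and WT hearts overlapped for all 7 genes, where 8.49% of all genes tested had no overlap. For Dcn the 95% interval was -0.28 to 0.36 and for Ogn -0.41 to 0.08, so changes of this size in the young KO heart were not resolved. Between aged KO and aged WT hearts, the log2 differences were positive for all but Dcn (-0.03, and 0.01 on log2(FPKM + 1)), with a median of 0.24 over the 7 genes, against a median of 0.00346 and 51.1% positive over all genes tested, and Podn was the only one of the 7 without overlap, where 2.1% of all genes tested had all KO hearts above all WT hearts. The median of the 7 ageing differences was 0.33 in KO, against -0.00871 over all genes tested, and -0.29 in WT, against -0.0111 over all genes tested. Without WT_Aged-1 the WT median was -0.19, the value of Lum. With age in WT, Podn, Fmod and Prelp were the 3 genes of 7 whose aged hearts lay entirely below the young ones, where 9.68% of all genes tested did. Podn was the 1 gene of 7 whose aged hearts lay entirely above in KO, where 8.71% of all genes tested did. These medians and the median between aged groups share hearts and are set side by side without a test. Each counts Podn, which was chosen from the aged hearts. With Podn left aside, the middle of the ageing differences lay between Prelp (0.13) and Dcn (0.33) in KO. In WT it lay between Prelp (-0.29) and Lum (0.08), and between the aged groups at Lum and Bgn (both 0.24).

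The 7 genes did not vary as a unit. After the mean of each group was removed from log2 CPM, Bgn and Lum went together over the 16 hearts (Pearson r of 0.90, Spearman rho of 0.897), as did Dcn and Lum (0.87 and 0.894) and Dcn and Ogn (0.83 and 0.668). Without the pair of hearts farthest from the median of the gene named first, these r were 0.87, 0.73 and 0.61. Podn had r between -0.11 and 0.10 with the other 6 genes. Prelp had r of 0.05 with Dcn over all hearts but 0.74 without WT_Aged-1, so its low value rests on that heart. Without WT_Aged-1, Prelp also had r of 0.76 with Bgn, 0.70 with Lum and 0.80 with Fmod, and 0.33 with Ogn. Bgn with Ogn fell from 0.45 to 0.23, so which genes go together depends in part on that heart. These values are descriptions without a test, computed over hearts that share their groups and scaling.

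**Figure D5:**
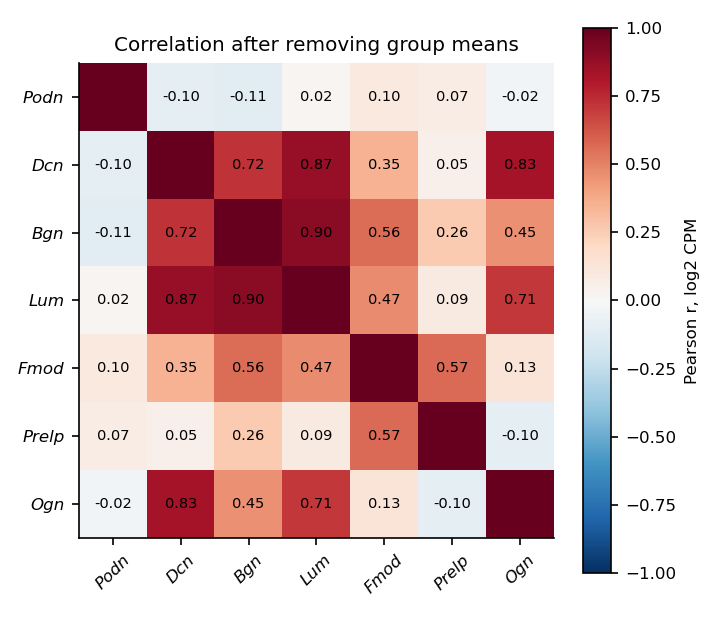
Pearson correlation of log2 CPM between each pair of SLRP genes over 16 hearts after the group means were removed, from -1 (blue) to 1 (red). Bgn, Lum, Dcn and, in part, Ogn form a correlated set (Bgn with Lum 0.90), and the Podn row stays between -0.11 and 0.10. Without WT_Aged-1, which is included here, r of Prelp was 0.74 with Dcn, 0.76 with Bgn and 0.70 with Lum.

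Over all 16 hearts without removing groups, the genes whose log2 CPM was most like that of Podn were Baz1b (r of 0.834), Wee1 (0.834) and Atxn1 (0.821). Those most like Dcn were Serpine2 (0.956), Zeb2 (0.941) and Pros1 (0.925), and those most like Bgn were Ltbp2 (0.927), Cilp (0.918) and Vim (0.913). For Lum they were Col8a1 (0.937), the SLRP Aspn (0.937) and Vim (0.932), and for Fmod Col6a3 (0.863), Clec3a (0.853) and Ecrg4 (0.832). For Prelp they were Pkd1 (0.866), Dennd2a (0.864) and the collagen receptor Ddr1 (0.848). Megf11 (0.889) and Hint3 (0.888) were among those most like Ogn. Each was picked as among the highest of 13373 correlations over 16 hearts and includes the differences between groups.

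Of 12 further SLRP family genes listed, 11 were in the table and 7 were tested. Ecm2, a leucine-rich matrix protein encoded next to Aspn, was the only one that edgeR called, where 9.93% of all genes tested were called lower with age in WT. It fell with age in WT, with 33.2 ± 3.47 CPM in aged and 45.4 ± 1.72 CPM in young hearts (SD, n = 4 each), a log2 difference of -0.46 ± 0.140 (edgeR adjusted p = 0.0257), and all aged hearts were below all young hearts. In KO, Ecm2 had 38.3 ± 8.21 CPM in aged and 44.1 ± 8.42 CPM in young hearts (SD, n = 4 each; log2 difference -0.20 ± 0.139, adjusted p = 0.429). With limma on log2(FPKM + 1), 0 of these genes were called with age in WT, and with DESeq2 2 were. Asporin (Aspn), which like decorin binds collagen and TGF-beta, had 55.9 ± 11 CPM in aged KO and 38.2 ± 8.56 CPM in young KO hearts (0.55 ± 0.282, adjusted p = 0.282), against 47.4 ± 22.2 CPM in aged WT and 46.7 ± 8.40 CPM in young WT hearts (0.02 ± 0.281, adjusted p = 0.970). The log2 differences with age in KO and in WT were -0.41 and -0.49 for Omd, -0.82 and -1.82 for Chad, 0.22 and 0.30 for Chadl, -0.13 and -0.08 for Nyx, and 0.40 and -0.38 for Tsku, none of them called by edgeR. Epyc, Kera, Optc and Podnl1 had at most 18, 1, 4 and 4 counts in any heart and were not tested. In both comparisons of KO with WT and with age in KO, edgeR, DESeq2 and limma called 0 of the 7, and 0 had an unadjusted p below 0.05 in edgeR.

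The collagen list, of fibril-forming, fibril-associated and type VI collagens, encodes the main binding partners of SLRPs. Of its 11 genes tested, 7 fell and 0 rose with age in WT hearts, with a median log2 difference of -0.72 against -0.0111 over all genes. In that comparison 9.93% of all genes tested were called lower and 11.8% higher. Col6a2, a chain of the microfibrillar type VI collagen that decorin and biglycan bind, had 58.4 ± 8.90 CPM in aged and 118 ± 8.75 CPM in young WT hearts (SD, n = 4 each; log2 difference -1.01 ± 0.111, edgeR adjusted p = 2.95e-06). Col6a1 (-0.78 ± 0.0993, adjusted p = 1.48e-05), Col5a1 (-0.72 ± 0.0977, adjusted p = 2.85e-05) and Col6a3 (-1.08 ± 0.158, adjusted p = 9.32e-05) fell as well. With age in KO the median was -0.24 and edgeR called 0 of the 11, with 3 at an unadjusted p below 0.05, while DESeq2 called 2 and limma 0. Col6a2 was also higher in aged KO than in aged WT hearts, with 82.1 ± 11.5 CPM against 58.4 ± 8.90 CPM (SD, n = 4 each; 0.49 ± 0.111, edgeR adjusted p = 0.0368), although the groups overlapped and limma on log2(FPKM + 1) called 0 of the 11. It was the 1 collagen that edgeR called there, where 0.165% of all genes tested were called higher and 0.71% lower. DESeq2 called 3 of the 11, and 6 had an unadjusted p below 0.05 in edgeR. The median log2 difference of the 11 between the aged groups was 0.33. In the same WT hearts the log2 differences of the 7 SLRPs with age were 0.41 for Dcn, 0.11 for Bgn, 0.08 for Lum, -0.29 for Prelp, -0.34 for Ogn, -0.44 for Podn and -2.67 for Fmod. Between young KO and young WT hearts edgeR called 0 collagens, with 2 at an unadjusted p below 0.05, and DESeq2 and limma called 0.

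Of 21 tested enzymes of the linker and of chondroitin and dermatan sulfate synthesis, which build SLRP sugar chains, 2 rose and 0 fell with age in each genotype. Among all genes tested 5.03% were called higher with age in KO and 11.8% in WT, so these counts are near the background. Dse, the epimerase that turns chondroitin into dermatan sulfate, had 12.7 ± 0.680 CPM in aged KO and 7.77 ± 0.974 CPM in young KO hearts (0.71 ± 0.169, edgeR adjusted p = 0.0127), and 13.6 ± 3.97 CPM in aged WT and 8.06 ± 1.35 CPM in young WT hearts (0.75 ± 0.168, adjusted p = 0.00313; SD, n = 4 each). Chpf2, a chondroitin polymerising factor, rose by 0.34 ± 0.0866 in KO (adjusted p = 0.0188) and 0.28 ± 0.0872 in WT (adjusted p = 0.0248). Of 8 keratan sulfate enzymes tested, the sulfotransferases Chst2 (-0.90 ± 0.251, adjusted p = 0.0139) and Chst1 (-0.68 ± 0.220, adjusted p = 0.0318) fell with age in WT, where 9.93% of all genes tested were called lower. In KO edgeR called 0 of these 8, with 1 at an unadjusted p below 0.05, and DESeq2 and limma also called 0. In neither comparison of KO with WT did edgeR, DESeq2 or limma call an enzyme of either list, with 0 enzymes at an unadjusted p below 0.05 in young hearts and 3 in each list in aged hearts.

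Among 20 receptors and ligands bound by SLRPs, Tlr2, a receptor for biglycan, rose with age in both genotypes. It had 8.32 ± 0.723 CPM in aged KO and 5.38 ± 0.532 CPM in young KO hearts (0.63 ± 0.140, edgeR adjusted p = 0.00767), and 10.7 ± 1.09 CPM in aged WT and 4.08 ± 0.791 CPM in young WT hearts (1.38 ± 0.142, adjusted p = 1.63e-06; SD, n = 4 each). The ATP receptor P2rx7, which acts with biglycan signalling, rose by 0.48 ± 0.130 in KO (adjusted p = 0.0262) and 0.81 ± 0.131 in WT (adjusted p = 0.000176), and these were the genes of the list that edgeR called in KO, where limma on log2(FPKM + 1) called 4. In WT the co-receptor Cd14 (1.29 ± 0.219, adjusted p = 0.000308) and P2rx4 (0.46 ± 0.0879, adjusted p = 0.000856) rose too, for 5 of the 20 up and 1 down. The shares called among all genes tested were 11.8% higher and 9.93% lower with age in WT, and 5.03% higher with age in KO. Macrophage markers moved with these receptors: 8 of 8 rose with age in KO and 7 of 8 in WT, with summed levels of 336 to 367 CPM in aged KO, 444 to 602 in aged WT, 185 to 241 in young KO and 174 to 234 in young WT hearts, and none of them was at 0 in any heart. The part of macrophages in the receptor values was not tested.

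Of 11 tested proteases known to cut SLRPs, Mmp12, the macrophage elastase, rose with age in KO (1.32 ± 0.389, edgeR adjusted p = 0.0418) and in WT (1.59 ± 0.442, adjusted p = 0.0137). Adamts4, an aggrecanase, fell in KO (-1.61 ± 0.398, adjusted p = 0.0155), and in WT Mmp14 rose (0.41 ± 0.141, adjusted p = 0.0416) and Mmp2 fell (-0.30 ± 0.105, adjusted p = 0.0488). With age edgeR called 2 proteases in KO and 3 in WT, DESeq2 2 and 7, and limma on log2(FPKM + 1) 1 and 2. Of 18 other proteoglycan core proteins tested, 2 rose and 1 fell with age in KO and 2 rose and 4 fell in WT. DESeq2 called 3 in KO and 6 in WT, and limma on log2(FPKM + 1) 1 and 5. For this list and the proteases, the shares called among all genes tested were 5.03% higher and 2.6% lower in KO. They were 11.8% higher and 9.93% lower in WT. Spock2, a testican, rose in KO (1.72 ± 0.284, edgeR adjusted p = 0.00184) and WT (0.88 ± 0.270, adjusted p = 0.0301), and the syndecan Sdc4 fell in KO (-0.42 ± 0.117, adjusted p = 0.0330) and WT (-0.34 ± 0.116, adjusted p = 0.0417). Gpc6, a glypican, rose in KO (0.32 ± 0.0974, adjusted p = 0.0461). Perlecan (Hspg2, -0.58 ± 0.102, adjusted p = 0.000383), to which Prelp binds, Cspg4 (-0.66 ± 0.134, adjusted p = 0.00152) and the glypican Gpc3 (-0.72 ± 0.209, adjusted p = 0.0184) fell with age in WT.

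Between aged KO and aged WT hearts, edgeR called 0 of the receptors and ligands, proteases and other proteoglycans, with 4, 2 and 4 of them at an unadjusted p below 0.05, while DESeq2 called 1, 1 and 0 and limma 0 in each list. Between young KO and young WT hearts all these tools called 0 genes in the same lists, with 1 in each at an unadjusted p below 0.05.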

How the data were processed

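Bulk RNA-seq of 16 mouse hearts was analysed from 2 deposited tables: expected counts per gene, which the authors estimated and which need not be whole (9.57% to 10.5% per library were not), and FPKM values, deposited by the authors as values per length and depth. The tools HISAT and Bowtie2 and the build GRCm39 come from the submitters' processing notes, which give no versions; the counting program and its strand setting are not given in the sources used here. Samples were grouped by their genotype and age labels (young WT hearts carry WO in their titles). Counts were rounded and tested in edgeR 4.0.16 (R 4.3.3; filterByExpr, TMM, robust quasi-likelihood F test) in 1 fit of all 16 libraries with 12 residual degrees of freedom, Benjamini-Hochberg adjusted over 13373 genes and called under 0.05. CPM use TMM-scaled library sizes, log2 CPM a prior count of 2. DESeq2 1.42.0 and limma 3.58.1 on log2(FPKM + 1) or log2(FPKM + 0.1), for genes at 0.1 FPKM or more in 4 libraries, were alternatives, with other scaling, filters and left-out hearts. The fit was tested on simulated data. Hearts of 1 group differed by a chi-square of at least 3.67 per degree of freedom, so none was treated as a repeat.

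The members and gene lists were chosen with earlier results of these data known. The genes named are all members, every tested other SLRP, up to 4 called genes of each other list in order of adjusted p, the 3 genes most like each member, and Armh4. 1 gene that this rule names is not reported here.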

Additional observations from a re-analysis of the deposited data

Results flagged for a closer look

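Among the 7 genes, only Podn had every aged KO heart above every young KO heart and every aged WT heart below every young WT heart. These changes use the same aged hearts from which Podn was chosen. Of all genes tested, 8.71% had the aged hearts entirely above in KO and 9.68% entirely below in WT. The share with both was not computed. The difference between the changes was 0.90 ± 0.148 (log2, KO minus WT) and was not tested, because Podn was chosen from a comparison it contains.

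A single heart lay far from the 3 others of its group in 3 of the 28 combinations of gene and group checked, where chance alone gives about 1 in 20. Podn was 26.0 CPM in KO_Aged-125, with the other 3 at 23.6 to 24.0 CPM. KO_Young-27 had 281 CPM of Bgn, with the other 3 at 202 to 209 CPM, and 180 CPM of Ogn, with the other 3 at 146 to 151 CPM. Without that heart the ageing difference of Bgn in KO was 0.64 (edgeR adjusted p = 0.014).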

How the results depend on the processing

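No paired analysis was possible because the groups share none of their animal numbers. Podn kept its direction in the 4 comparisons under every alternative that was run: 0.55 to 0.66 in aged KO against aged WT hearts, 0.38 to 0.54 with age in KO, -0.50 to -0.33 with age in WT and -0.35 to -0.18 in young KO against young WT hearts. Podn was chosen from the aged hearts, and its groups did not overlap in the comparisons that use them. A kept direction there follows from that choice and is no separate support. The number of the 6 tested genes called with age in WT was 1 in the reported fit, 0 with a minimum of 1 CPM in 4 libraries and with log2(FPKM + 1) or log2(FPKM + 0.1), 3 with DESeq2 (Dcn, Fmod and Ogn), and 2 (Fmod and Ogn) without robust estimation, an alternative chosen after seeing the data. With the WT groups fitted alone it was 1, but the gene was Fmod and not Ogn. Leaving out 1 heart gave 0 to 1 calls with age in WT and 0 to 1 with age in KO. With age in KO, Bgn was the called gene in each alternative other than those left-out hearts. With 1 heart left out, the median of the 7 genes between aged KO and aged WT hearts lay between 0.17 and 0.37, and that of the ageing change in KO minus that in WT between 0.33 and 0.53. The pathway genes called between aged KO and aged WT hearts were 1 in the reported fit, 5 with DESeq2 and 0 with log2(FPKM + 1). Fmod between aged KO and aged WT hearts was 0.66 with log2(FPKM + 1), where the pseudocount is above its mean level of 0.721 FPKM, and it could not be fitted with those groups alone because it did not pass their filter. The causes of the other shifts were not tested. With 1 to 81 counts per heart, depth limits Fmod more than any other of the 7 genes.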
